A study of Mus musculus with 6 samples.

Results

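The Toll-like receptor genes of mouse macrophages were examined for their levels and for their response to the antipsychotic drug thiothixene. The members were chosen by name, as the rows of the count tables whose Ensembl identifier maps to Tlr1, Tlr2, Tlr3, Tlr4, Tlr5, Tlr6, Tlr7, Tlr8, Tlr9 or Tlr13. All 10 were found among 56691 gene rows, and all 10 passed the filter on low counts that left 14856 genes for the test. Bone marrow-derived macrophages, primary phagocytes grown in culture from marrow precursors, came from 3 mice named a, b and c. On day 6 of culture the cells received 2 µM thiothixene, a blocker of dopamine receptors, or the solvent DMSO for 24 h, so each mouse gave a library per treatment. Total RNA was sequenced as paired ends. No source used here gives the strain, genotype, age or sex of the mice. Both groups share the same culture, and no added microbial ligand is named.

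Toll-like receptors are membrane proteins of innate immune cells that recognise conserved microbial molecules with an outer domain of leucine-rich repeats. Their inner TIR domain recruits the adaptor proteins MyD88 and TRIF, which lead to NF-kappaB, to interferon regulatory factors and to the expression of inflammatory cytokines. TLR1, TLR2, TLR4, TLR5 and TLR6 act mainly at the cell surface, where TLR2 pairs with TLR1 or TLR6 to sense lipoproteins, TLR4 senses lipopolysaccharide and TLR5 senses flagellin. TLR3, TLR7, TLR8, TLR9 and TLR13 sit in endosomes and sense nucleic acids, among them bacterial ribosomal RNA in the case of TLR13, a receptor of mice that humans lack.

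Upstream sequences are shown for Tlr2, whose levels did not overlap between treatments, for Tlr1 and Tlr6, which encode the partners of TLR2, and for Tlr13, the most abundant member per length. They come from RefSeq's promoter table (GRCm38.p6), which held 8 of the 10 members, and were trimmed to bases upstream of every annotated transcript start. Each reads 5′ to 3′ on the gene's strand, with capitals for motif matches on either strand. The Tlr2 window is chr3:83841768-83841858 (minus strand), that of Tlr1 chr5:64933564-64933808 (minus), that of Tlr6 chr5:64960098-64960298 (minus) and that of Tlr13 chrX:106143025-106143203 (plus).
Tlr2: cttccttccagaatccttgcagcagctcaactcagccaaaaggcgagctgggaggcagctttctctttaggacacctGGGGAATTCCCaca
Tlr1: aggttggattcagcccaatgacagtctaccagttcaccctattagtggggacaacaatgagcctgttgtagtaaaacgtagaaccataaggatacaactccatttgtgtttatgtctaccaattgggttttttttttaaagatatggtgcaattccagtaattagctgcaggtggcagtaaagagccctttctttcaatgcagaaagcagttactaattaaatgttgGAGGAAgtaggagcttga
Tlr6: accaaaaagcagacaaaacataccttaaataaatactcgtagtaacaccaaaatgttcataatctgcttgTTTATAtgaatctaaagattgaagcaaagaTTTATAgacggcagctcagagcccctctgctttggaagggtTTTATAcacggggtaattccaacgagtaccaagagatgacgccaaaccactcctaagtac
Tlr13: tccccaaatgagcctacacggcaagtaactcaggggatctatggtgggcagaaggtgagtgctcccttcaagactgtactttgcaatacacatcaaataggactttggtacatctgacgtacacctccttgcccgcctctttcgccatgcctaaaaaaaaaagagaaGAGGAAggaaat

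Motifs searched on both strands were the PU.1 core GAGGAA, the Sp1 box GGGCGG, the core of the interferon-stimulated response element, the TATA box TATAAA and the NF-kappaB consensus. The Tlr2 window held 2 overlapping matches to the NF-kappaB consensus in its capitals, and 2.3% of 32851 promoter windows of the same length hold at least 1. Like the members' windows, those began 250 bases before a RefSeq start, but they were not trimmed to other annotated starts. Tlr1 and Tlr13 each held 1 PU.1 core, a motif present in 22.7% and 17.1% of windows of their lengths. The Tlr6 window held 3 TATA boxes on its other strand, where 9.2% of windows of that length hold at least 1. Neither an Sp1 box nor an interferon response element was in these 4 windows. These matches describe letters and not bound sites.

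Counts assigned to genes ranged from 10472349 in the DMSO library of mouse b to 22297520 in the DMSO library of mouse c. The macrophage label was met by abundant Csf1r, the receptor of the macrophage growth factor (1135 to 1899 CPM, the usual depth-scaled count, here with TMM library sizes), and Lyz2, a lysozyme of myeloid cells. The 12 macrophage genes, of which Lyz2 made up 48.6%, summed to 11381 to 12638 CPM with thiothixene and 10963 to 23174 with DMSO. Itgam, another macrophage marker, was listed at 0 counts in 5 libraries and at 1 in the other. Whether that comes from the counting or its annotation was not tested. Over all genes, which are not independent replicates, Pearson's r of log2 CPM was 0.825 for DMSO of mouse b with DMSO of mouse c, the lowest of all library pairs. These 2 libraries differed from each other by transcript length, and thiothixene of mouse a leaned the same way as DMSO of mouse c. With genes in 4 length classes, the median deviation in the longest class from the mean over libraries was -0.605 log2 units for DMSO of mouse b and 0.276 in DMSO of mouse c, and in the shortest class 0.571 and -0.299. For thiothixene of mouse a these medians were 0.198 and -0.152. The share of counts listed as not aligned was 4.98% in thiothixene of mouse a and 4.52% in DMSO of mouse c, beside 1.85% to 2.31% in the other libraries. The longest transcripts of all 10 members lay in the third class (3005 to 4484 bases). There the medians were -0.078 for DMSO of mouse b and 0.045 for DMSO of mouse c. Those of Tlr2 (3014 bases) and Tlr1 (3025) lay at its lower edge, and that of Tlr3 (4407) near its upper edge. In the next shorter class the medians were 0.311 for DMSO of mouse b and -0.171 for DMSO of mouse c, so the class median may not hold for each member. Marker lists of other cells were summed in CPM. Neutrophil and granulocyte precursor genes summed to 401 to 474 with thiothixene and 415 to 933 with DMSO, where mouse b was the highest, and the defining gene Ly6g held at most 10 counts. Monocyte genes summed to 186 to 212 against 281 to 296, which do not overlap. Dendritic cell genes summed to 129 to 281 against 116 to 544, of which Bst2 made up 88.4%, while Flt3 held at most 1 count. B cell genes stayed at or under 8.70, with Ms4a1 and Pax5 at 0. T and NK cell genes reached 0.937, mast cell and basophil genes 3.21 and erythroid genes 4.35. Stromal genes, of which Col1a1 made up 51.0%, ran from 57.5 to 300.5 with thiothixene and from 101.0 to 175 with DMSO. For the differences by length, fits with offsets for length and GC are given in the last section. The part of the other differences in the results below was not tested. In bulk RNA, fewer cells of a type and less RNA per cell cannot be told apart.

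Tlr13 was the most abundant member and Tlr5 the least. Compared per length, as CPM per kilobase of annotated exon, Tlr13 had a median over the 6 libraries of 127 (range 78.0 to 212). Tlr8 followed at 41.0 (7.41 to 73.0) and Tlr7 at 38.0 (21.7 to 58.4), the latter pair being neighbours on chromosome X that encode sensors of single-stranded RNA. Tlr4 stood at 21.5 (9.29 to 33.8), Tlr2 at 15.5 (7.23 to 24.2), Tlr1 at 9.24 (7.15 to 19.4) and Tlr6 at 5.68 (4.35 to 8.01). Lower still were Tlr3, the sensor of double-stranded RNA, at 3.47 (1.97 to 5.34), Tlr9, the sensor of unmethylated CpG DNA, at 1.41 (0.385 to 3.24), and Tlr5 at 0.166 (0.101 to 0.438).

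The order held in all 6 libraries for 6 of the 9 neighbouring pairs, those of Tlr13 over Tlr8, Tlr7 over Tlr4, Tlr1 over Tlr6, Tlr6 over Tlr3, Tlr3 over Tlr9 and Tlr9 over Tlr5. Their ranges over libraries nevertheless overlapped except between Tlr13 and Tlr8. Tlr8 exceeded Tlr7 in 4 of 6 libraries and Tlr4 exceeded Tlr2 in 4 of 6, so neither pair differed beyond its spread. Tlr2 exceeded Tlr1 in 5 of 6. In the DMSO libraries alone the median of Tlr2 was above that of Tlr4.

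**Figure D1:**
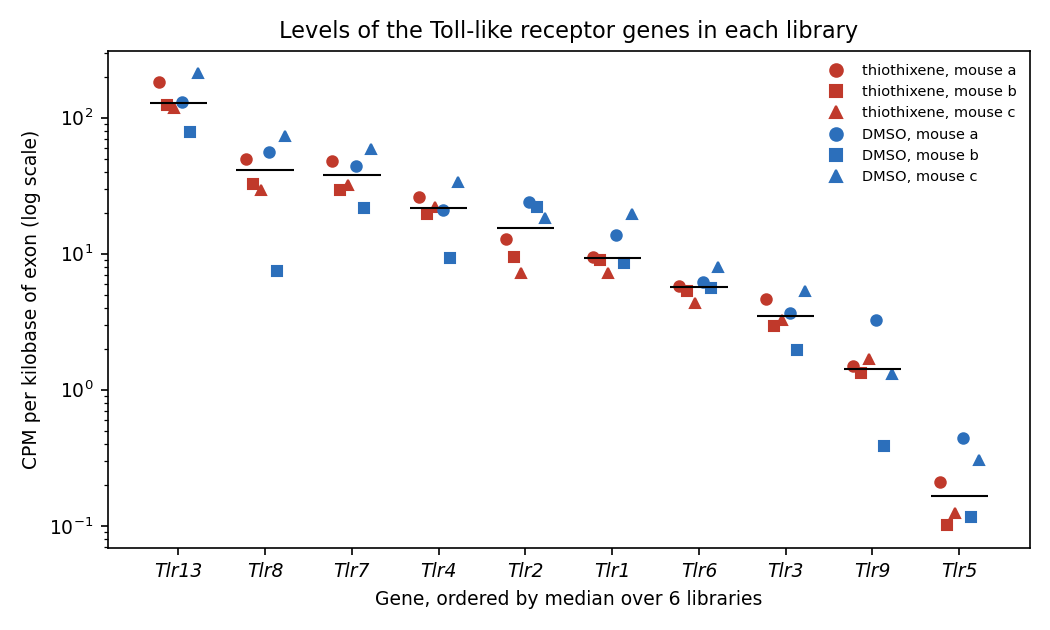
Level of each Toll-like receptor gene in each library, as CPM per kilobase of exon on a log axis, with 1 point per library (colour for treatment, shape for mouse) and a line at the median of 6. Tlr13 lies above all other members and Tlr5 below 1, and the DMSO library of mouse b is the lowest point for Tlr8, Tlr7, Tlr4, Tlr13, Tlr3 and Tlr9.

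The endosomal receptors, Tlr13 above all, made up most of the family's transcripts in each library. Tlr13 alone took 53.7%, 53.0% and 52.5% of the members' total per kilobase with thiothixene in mice a, b and c. With DMSO it took 43.2%, 50.3% and 49.3%. Summed per kilobase, Tlr3, Tlr7, Tlr8, Tlr9 and Tlr13 took 84.1%, 81.3% and 81.9% of the members' total with thiothixene in mice a, b and c, and 78.4%, 70.6% and 81.4% with DMSO. The summed level of all 10 was 341.2, 233 and 225 CPM per kilobase with thiothixene and 303, 155 and 429 with DMSO. The DMSO group thus held both the lowest and the highest total.

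Thiothixene was compared with DMSO to ask which receptor transcripts differ after the drug. No member passed an adjusted p of 0.05 in edgeR's quasi-likelihood test, where 0 of 14856 genes passed (0.0%) and the smallest adjusted p was 0.9998. DESeq2 and limma-voom also called 0 members, and 1 member, Tlr2, had an unadjusted p under 0.05 in edgeR, as did 1.72% of all tested genes. The common coefficient of variation between replicates in edgeR's fit was 46%, so lack of a call does not show lack of a response. Log2 fold changes were below 0 for 8 of 10 members, beside 54.7% of tested genes, and their median was -0.24, beside -0.043 for all tested genes. Below 0 too were 10 of 11 tested macrophage marker genes, 6 of 7 monocyte genes and 10 of 10 neutrophil and granulocyte precursor genes. Of tested stromal genes 2 of 6 were. The lean is thus not particular to the members. The members' median rests on single libraries. It was -0.55 without DMSO of mouse b, -0.44 without thiothixene of mouse a, -0.13 without thiothixene of mouse b, -0.12 without DMSO of mouse a and -0.027 without DMSO of mouse c. It was -0.022 with the mouse as a block, and 0.25 when mouse c was left out of that fit.

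Among the surface receptors, Tlr2 had the lowest fold change of the family. ENSMUSG00000027995.11 lies on chromosome 3 (GRCm38, minus strand) from 83836272 to 83841767. It measured 38.5, 28.5 and 21.8 CPM with thiothixene in mice a, b and c, and 72.8, 66.2 and 55.1 CPM with DMSO. Every thiothixene library lay below every DMSO library, a pattern on the lower side shown by 2.77% of tested genes, and Tlr2 was the only member whose groups did not overlap. The means were 29.6 ± 8.39 and 64.7 ± 8.95 CPM (SD, n = 3), and the log2 fold change was -1.13 (SE 0.31, 95% interval -1.85 to -0.41), a ratio of 0.457. Its unadjusted p in edgeR, from a model over all genes, was 0.00639 and its adjusted p 0.9998, so the difference did not pass the test. Within mice the log2 ratio was -0.92 in mouse a, -1.22 in mouse b and -1.34 in mouse c. Tlr2 was lower in 3 of 3 mice, as were 6.82% of tested genes. With library quality weights in limma-voom, a fit that called 0.108% of tested genes lower, the adjusted p was 0.0358 (-1.40). That fit gave DMSO of mouse a a weight of 2.283 and DMSO of mice b and c weights of 0.209 and 0.228. Thiothixene of mice a, b and c had weights of 0.537, 6.227 and 2.746. It thus leaned on DMSO of mouse a and thiothixene of mice b and c, where treatment and mouse cannot be told apart. Those are the libraries kept by a fit below that leaves out the others, so the 2 fits are not separate evidence.

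Tlr1 and Tlr6, which encode the partners of TLR2, are neighbours on chromosome 5, with 18467 bases between them on the same strand. Tlr1 measured 31.5, 30.3 and 23.9 CPM with thiothixene and 46.1, 28.5 and 65.1 CPM with DMSO. DMSO of mouse a and of mouse c lay above every thiothixene library, while DMSO of mouse b lay among them, so the groups overlapped. The log2 fold change of Tlr1 was -0.71 (SE 0.36, 95% interval -1.53 to 0.11), and it was -0.39 without the DMSO library of mouse c. Tlr6 measured 21.6, 19.6 and 16.2 CPM against 23.0, 20.8 and 29.9 CPM. Its thiothixene library was the lower in 3 of 3 mice, by log2 ratios of -0.093, -0.080 and -0.88, and the groups overlapped (-0.36, SE 0.30, and -0.19 without DMSO of mouse c). With Tlr2 and Tlr5 it was 1 of 3 members lower in every mouse. Tlr1 and Tlr6 share 4.3% and 3.86% of their 150-base transcript windows, so a read from such a window could not by itself be assigned to either. Whether the other read of its pair settles this was not tested.

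Tlr4, the lipopolysaccharide receptor, measured 145.3, 109.6 and 122 CPM with thiothixene and 117, 51.6 and 187.9 CPM with DMSO. The thiothixene libraries lay inside the range of the DMSO libraries. Its log2 fold change was 0.079 (SE 0.44, 95% interval -0.94 to 1.10), so a difference of up to about those bounds in either direction was not resolved. Tlr5 held 21, 9 and 12 counts with thiothixene and 47, 5 and 34 with DMSO, or 0.997, 0.483 and 0.592 against 2.10, 0.558 and 1.45 CPM. At this depth its interval ran from -2.76 to 0.75 around -1.001 (SE 0.77), and the value was -0.55 without DMSO of mouse a.

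**Figure D2:**
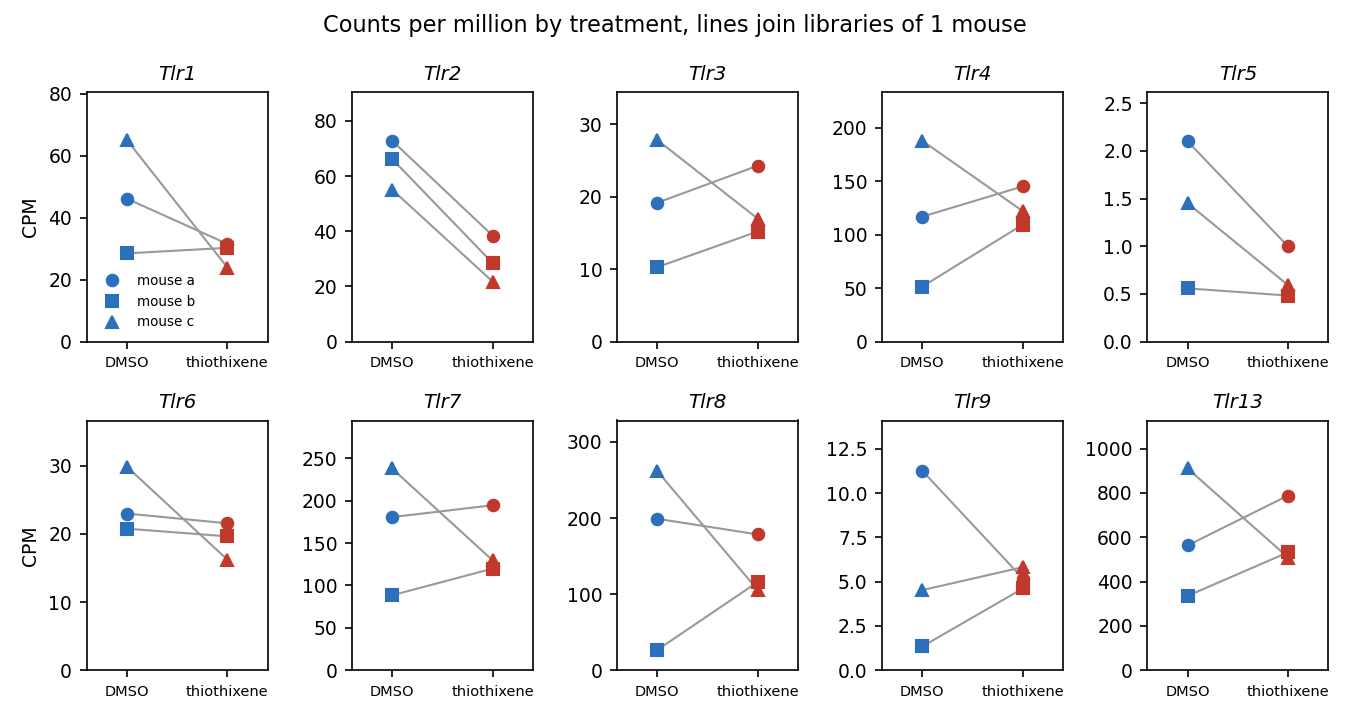
CPM of each Toll-like receptor gene with DMSO and with thiothixene, each axis starting at 0, with lines joining the libraries of a mouse. The 3 lines of Tlr2 slope downward without the groups overlapping, while for Tlr4, Tlr7, Tlr8 and Tlr13 DMSO of mouse b lies at the bottom, DMSO of mouse c at the top and the lines cross.

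The endosomal receptors had log2 fold changes between -0.29 and 0.016, with intervals reaching to both sides of 0. Tlr13 measured 789, 532 and 509 CPM with thiothixene and 563, 336 and 911 CPM with DMSO (0.016, SE 0.40). Tlr7 measured 194.7, 119.9 and 129.7 CPM against 180.7, 88.5 and 238 CPM (-0.19, SE 0.40). For both genes the highest and the lowest library were DMSO libraries, of mice c and b.

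Tlr8 had the largest ratio of highest to lowest library among the members, and both of those libraries were DMSO. It measured 178.4, 115.9 and 105.3 CPM with thiothixene and 199, 26.6 and 262 CPM with DMSO, so the DMSO libraries differed by a factor of 9.85. The log2 fold change was -0.29 (SE 0.68), and without the DMSO library of mouse b it was -0.79. Tlr9 measured 5.18, 4.62 and 5.82 CPM against 11.3, 1.34 and 4.52 CPM. Its DMSO library of mouse a was the highest and that of mouse b the lowest, and the fitted value was -0.15 (SE 0.67), which became 0.81 without the DMSO library of mouse a. Tlr3 measured 24.3, 15.2 and 17.0 CPM against 19.2, 10.3 and 27.8 CPM (-0.025, SE 0.42). An antisense gene, Gm45542, covers 7.32% of the Tlr3 exon bases, and no source used here states whether reads were counted by strand.

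A fit chosen after the values were seen left out thiothixene of mouse a and DMSO of mice b and c. It called 5 members lower (Tlr1, Tlr2, Tlr7, Tlr8 and Tlr9) and 0 higher, beside 2.97% and 4.02% of its 15807 tested genes. It keeps 1 DMSO library, from mouse a, against thiothixene of mice b and c, so treatment and mouse cannot be told apart there.

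**Figure D3:**
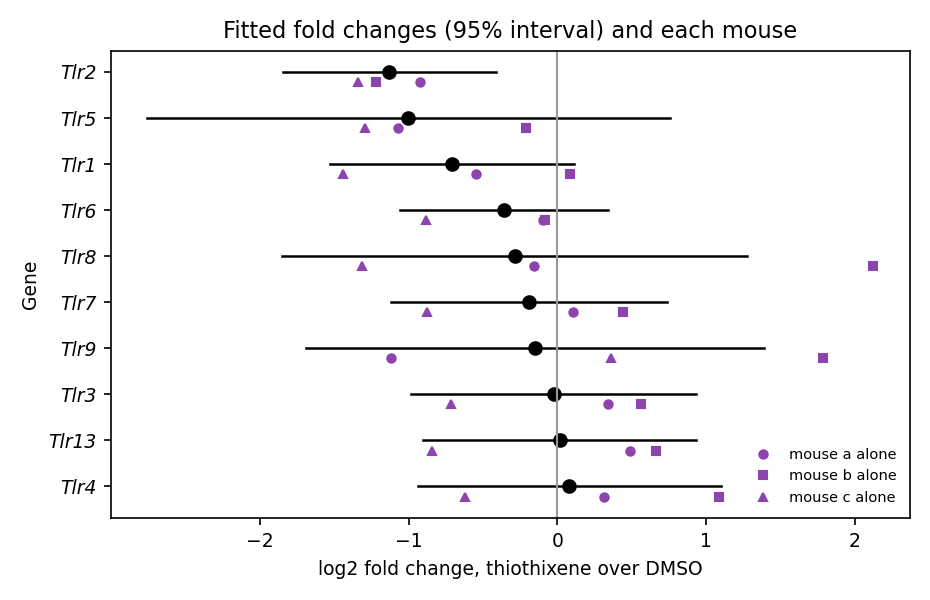
Log2 fold change of thiothixene over DMSO for each Toll-like receptor gene, with the edgeR estimate and 95% interval in black and the ratio within each mouse in purple. Only the interval of Tlr2, from -1.85 to -0.41, lies on one side of 0, and the points of mouse b reach 2.12 for Tlr8 and 1.78 for Tlr9.

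The coefficient of variation of CPM was larger with DMSO than with thiothixene for 84.0% of all tested genes and for 9 of 10 members, a share near that background. Tlr2 was the exception, at 13.8% with DMSO and 28.3% with thiothixene. The coefficient was 75.0% for Tlr8 and 88.7% for Tlr9 with DMSO, and 29.7% and 11.6% with thiothixene. The DMSO library of mouse b was the lowest of 6 for 6 members, beside 33.9% of tested genes, and that of mouse c the highest for 7, beside 27.1%. Both held for 5 members (Tlr3, Tlr4, Tlr7, Tlr8 and Tlr13), and for 17.3% of tested genes. Tlr2 and Tlr5 followed neither pattern. Their highest library was DMSO of mouse a, and the lowest was thiothixene of mouse c for Tlr2 and of mouse b for Tlr5.

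Ratios of 2 members within a library do not depend on how libraries are scaled. They can still carry the differences between libraries by transcript length, whose part here was not tested. The longest transcript has 3014 bases for Tlr2 and 4077 for Tlr4. Permutation tests of ratios leave out the pairing by mouse unless stated. The Tlr2 to Tlr4 ratio, per kilobase, was 0.488, 0.479 and 0.329 with thiothixene in mice a, b and c, and 1.15, 2.37 and 0.541 with DMSO. All 3 thiothixene libraries lay below all 3 DMSO libraries. The mean log2 ratio was -1.23 ± 0.32 against 0.18 ± 1.06 (SD, n = 3). The two-sided exact permutation p was 0.1, the smallest that 3 against 3 unpaired libraries can give. An exact test of the differences within each mouse gave p = 0.25, the smallest that 3 pairs can give. The difference of -1.42 was -0.89 without the DMSO library of mouse b and -1.95 without that of mouse c.

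The Tlr7 to Tlr8 ratio was 0.959, 0.909 and 1.08 with thiothixene and 0.798, 2.92 and 0.800 with DMSO. A single library, DMSO of mouse b, stood apart, and the difference of the mean log2 ratios was -0.33 (two-sided exact permutation p = 1). Without that library it was 0.30, with the 3 thiothixene libraries above the other 2 DMSO libraries. The Tlr1 to Tlr6 ratio was 1.63, 1.72 and 1.64 with thiothixene, which spans little, and 2.23, 1.53 and 2.43 with DMSO (difference -0.28, two-sided exact permutation p = 0.4). The difference was -0.49 without DMSO of mouse b and -0.15 without DMSO of mouse c.

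After the values were seen, Tlr2 was also set against its partners. The Tlr2 to Tlr6 ratio was 2.21, 1.79 and 1.66 with thiothixene and 3.92, 3.94 and 2.28 with DMSO. These groups did not overlap (two-sided exact permutation p = 0.1, the smallest possible without pairing). Like the Tlr2 to Tlr4 ratio, this one has Tlr2 on top, the member whose own groups did not overlap. The 2 ratios are therefore not evidence separate from Tlr2 itself. The Tlr2 to Tlr1 ratio was 1.35, 1.05 and 1.01 against 1.75, 2.58 and 0.941, groups that overlapped (exact permutation p = 0.4). Over these 5 ratios no adjusted p can fall below the smallest p that its test can give.

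**Figure D4:**
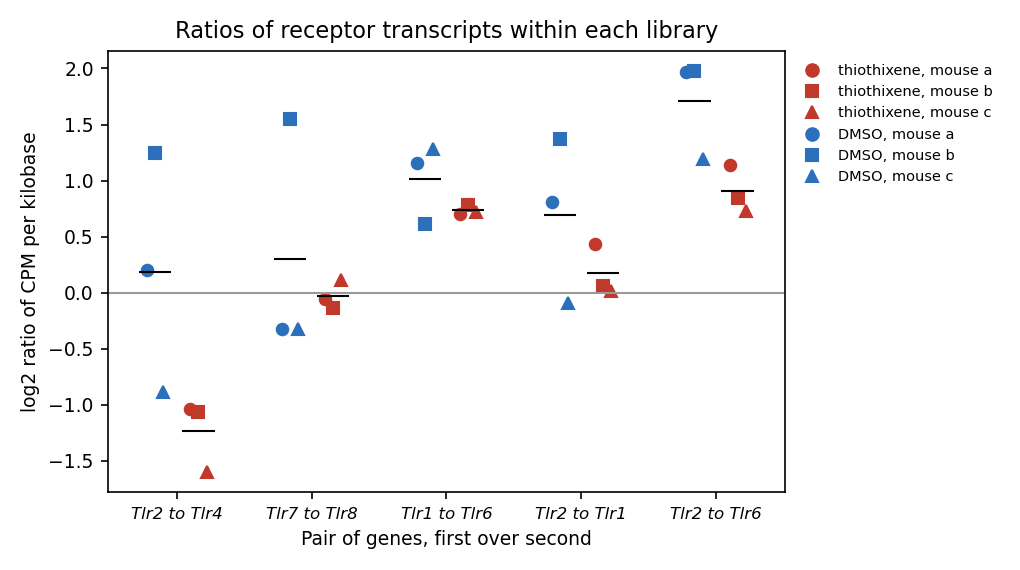
Log2 ratio of 2 receptor genes within each library, per kilobase of exon, with DMSO on the left and thiothixene on the right of each pair and a line at the mean of 3 libraries. Thiothixene and DMSO separate for Tlr2 to Tlr4 and for Tlr2 to Tlr6, which both restate the difference in Tlr2. Tlr2 to Tlr6 and Tlr2 to Tlr1 were added after the values were seen. The DMSO library of mouse b stands apart for Tlr7 to Tlr8 at 1.55.

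The genes whose profile over the 6 libraries was closest to that of Tlr2, by the root mean square difference of centred log2 CPM, were Pdcd4 (0.101), Pilrb2 (0.119) and the predicted gene Gm16268 (0.120), where the own deviation of Tlr2 was 0.635. Pdcd4, which encodes an inhibitor of translation initiation, measured 7.50, 5.26 and 4.34 CPM with thiothixene and 14.8, 11.8 and 12.3 CPM with DMSO. Closest to Tlr4 were Peli1 (0.047), Alg6 (0.051) and Appbp2 (0.052), beside an own deviation of 0.571. Peli1, which encodes a ubiquitin ligase of Toll-like receptor signalling, measured 57.0, 42.4 and 48.2 CPM against 49.2, 21.7 and 75.7 CPM. As for Tlr4, its highest library was DMSO of mouse c and its lowest DMSO of mouse b. The libraries share depth and composition, and these values describe likeness only.

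The other genes of the pathway were grouped in 6 lists by role, and 0 members of any list passed the adjusted threshold in edgeR, where 2 of 80 tested genes, Ly86 and Tnfaip3, had an unadjusted p under 0.05, near the 1.72% of all tested genes. DESeq2 and limma-voom called 0 of them too. The genes named below include the 2 of smallest p in each list, a choice that favours groups without overlap. Of all tested genes, 2.77% lay lower with thiothixene without overlap and 3.88% higher, and 6.82% were lower in all 3 mice. Of 6 co-receptor and ligand delivery genes, 4 were below 0, with a median log2 fold change of -0.39. Ly86, which encodes MD-1, the partner of the TLR4-like receptor CD180, measured 72.5, 41.5 and 44.1 CPM with thiothixene and 89.1, 112 and 123 CPM with DMSO. Its groups did not overlap, it was lower in 3 of 3 mice, and its log2 fold change was -1.04 (SE 0.32, unadjusted p 0.0117 in edgeR's model, adjusted p 0.9998). Cd180 itself lay on the other side of 0 (0.32, SE 0.32), as did the abundant Cd36, a scavenger receptor that hands ligands to TLR2 with TLR6 (0.38, SE 0.36).

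Of 15 tested genes of receptor folding, trafficking and endosomal processing, 7 were above 0 and 8 below, with a median of -0.051. Cathepsins B and S, endosomal proteases, were the most abundant, Ctsb at 0.14 (SE 0.31) and Ctss at 0.074 (SE 0.29). Cnpy4, a chaperone of surface receptors, measured 17.6, 17.6 and 14.5 CPM against 20.3, 29.3 and 24.9 CPM, which did not overlap (-0.58, SE 0.30). Slc15a3, an endolysosomal peptide transporter, had a value of 0.48 (SE 0.39).

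Of 4 tested adaptor genes 3 were above 0, with a median of 0.21. Myd88, the adaptor of most members, was listed at 0 counts in all 6 libraries, so its level is unknown here. Macrophages ordinarily express it, and whether the 0 comes from the counting or its annotation was not tested. Ticam2, the bridging adaptor between TLR4 and TRIF, measured 14.7, 13.05 and 7.99 CPM with thiothixene and 16.5, 16.2 and 16.1 CPM with DMSO. Those groups did not overlap (-0.45, SE 0.34), and the DMSO libraries lay close together. Ticam1, which encodes TRIF, was at 0.21 (SE 0.38), Tirap, the bridging adaptor of TLR2 and TLR4, at 0.23 (SE 0.33) and Pik3ap1, a phosphoinositide 3-kinase adaptor, at 0.21 (SE 0.31).

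Among 23 kinases, ligases and transcription factors 12 were above 0, with a median of 0.0073. Irak2, a kinase of the MyD88 complex, measured 72.3, 71.6 and 72.1 CPM against 58.0, 58.3 and 51.9 CPM, and Ikbkg, the regulatory subunit of the IkappaB kinase, 329.9, 338 and 339 CPM against 300.5, 319.7 and 283 CPM. Both were higher in every thiothixene library than in every DMSO library, as were 3.88% of tested genes. Their log2 fold changes were 0.36 (SE 0.25) and 0.16 (SE 0.25). Irf7, an interferon regulatory factor downstream of TLR7 and TLR9, was at -0.81 (SE 0.52) with overlapping groups, and Irak4 at -0.37 (SE 0.32).

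Negative regulators had 8 of 15 genes above 0, with a median of 0.0073. Tnfaip3, which encodes the ubiquitin-editing enzyme A20 that limits NF-kappaB signalling, measured 60.9, 74.4 and 82.3 CPM with thiothixene and 34.7, 28.6 and 46.7 CPM with DMSO. It was the higher in 3 of 3 mice, without overlap between groups, at 0.98 (SE 0.30, unadjusted p 0.0109 in edgeR's model, adjusted p 0.9998). Tollip, an inhibitor of IRAK1, measured 116, 128 and 118 CPM against 99.1, 93.7 and 86.0 CPM (0.38, SE 0.25). Trim30a, which promotes the degradation of TAB proteins, was at -0.50 (SE 0.46).

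Genes that Toll-like receptor signalling induces lay on both sides of 0, with 9 of 17 tested above it and a median of 0.062. Cxcl10, an interferon-induced chemokine, was near the detection limit at 0.190, 0.268 and 0.888 CPM with thiothixene against 1.16, 1.56 and 2.22 CPM with DMSO (-1.86, SE 0.84). Il1a measured 2.90, 2.74 and 3.11 CPM against 1.07, 0.447 and 2.56 CPM, again without overlap but on the higher side (1.06, SE 0.68). The more abundant chemokine genes Ccl2 and Ccl3 were higher with thiothixene within each mouse, with overlapping groups, at 0.86 (SE 0.61) and 0.54 (SE 0.36). Il6, Cxcl1 and Nos2 held at most 5, 26 and 4 counts, and Il12b and Ifnb1 were listed at 0.

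The medians of these lists also moved when 1 library was left out. Co-receptors ran from -0.43 without DMSO of mouse a to -0.11 without DMSO of mouse b. The same 2 omissions gave -0.16 and 0.28 for folding and trafficking genes. Adaptors ran from 0.0075 without DMSO of mouse b to 0.28 without thiothixene of mouse a, and kinases from -0.11 without DMSO of mouse b to 0.12 without DMSO of mouse c. Negative regulators ran from -0.11 without thiothixene of mouse c to 0.12 without DMSO of mouse a, and induced genes from -0.31 without thiothixene of mouse c to 0.29 without DMSO of mouse b.

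**Figure D5:**
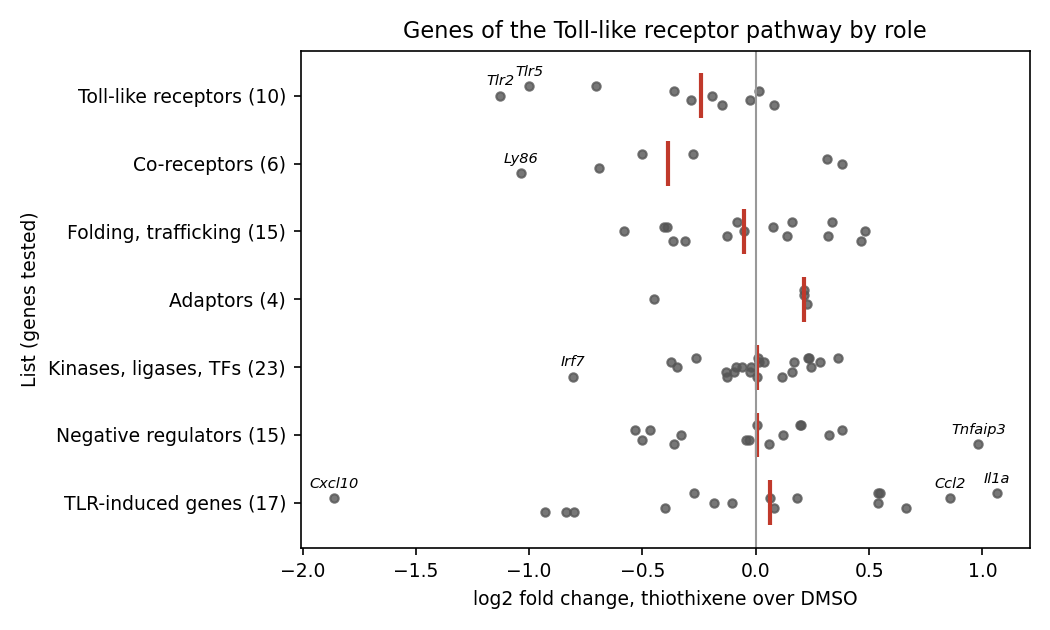
Log2 fold change of thiothixene over DMSO for each tested gene of the Toll-like receptor pathway, a row per role with the number tested and a red line at the median. Tlr2, Tlr5 and Ly86 lie near -1 and Tnfaip3 and Il1a near 1, while the medians of the 7 lists run from -0.39 to 0.21 with all 6 libraries, values that move when a library is left out.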

How the data were processed

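The 6 total RNA libraries from 3 mice and 2 treatments were grouped, with groups taken from the treatment label and the mouse letter in each title. Each library has its own table of raw, whole-number counts by gene, as deposited by the authors. The mouse build mm10 and STAR 2.7.11b are listed, with FastQC 0.11.8, DESeq2 1.44 and Trim Galore 0.6.10, per the submitters' processing notes, which give no roles. No source used here names the counting program, its strand setting or its annotation. The 5 rows that name no gene held 51.19% to 53.42% of all rows' counts and stayed out of library sizes and tests. Symbols, exon lengths and positions came from GENCODE M21 (GRCm38), matched without version numbers (52073 of 56691 identifiers).

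Treatment was tested without other terms by the robust quasi-likelihood method of edgeR 4.0.16 under R 4.3.3, after TMM scaling and filterByExpr. P-values were adjusted by Benjamini-Hochberg across every tested gene, with a threshold of 0.05. CPM use TMM-scaled library sizes. Each standard error is the size of the log2 fold change divided by the root of its F statistic. Alternatives were DESeq2 1.42.0, limma-voom (limma 3.58.1, with and without library quality weights), RLE scaling, other filters, the mouse as a block and fits without libraries. After seeing the data, fits were added that leave out 3 libraries standing apart or that carry spline offsets (5 degrees of freedom) for length and GC.

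Libraries of a letter come from the same mouse, so the letters pair them. Their deviations from the group means correlated at -0.131, 0.318 and -0.301 for mice a, b and c. Per the labels, each replicate is a different mouse.

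All 10 members are named, and of each other list the 2 genes of highest mean CPM and the 2 of smallest p. The members and lists were chosen with earlier results of these data known. The most alike genes are the 3 of smallest difference from Tlr2 and from Tlr4.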

Additional observations from a re-analysis of the deposited data

How the results depend on the processing

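Depth limits Tlr5 most. The thinnest library was DMSO of mouse b. The count of genes called in edgeR was 0, and it was 1 without a low-count filter, 2 in DESeq2, 1 in DESeq2 with the replicate block, 25 with library quality weights, 1105 without thiothixene of mouse a and DMSO of mice b and c, and 0 to 45 when single libraries or mice were left out (45 without mouse c). Members called were 0, except 1 (Tlr2, lower) with quality weights (-1.40) and 5 without those 3 libraries, a fit whose lone DMSO library is assumed to vary like the others. The 5 were Tlr1 (-0.76), Tlr2 (-1.53), Tlr7 (-0.53), Tlr8 (-0.84) and Tlr9 (-1.10). In that fit 16 of 81 tested genes of the other lists were called, 12 higher and 4 lower, against 0 in every other setting run.

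Tlr1, Tlr2, Tlr5 and Tlr6 were below 0 in all 20 alternatives, Tlr2 from -1.53 to -0.94, Tlr1 from -1.001 to -0.22, Tlr5 from -1.95 to -0.55 (-1.80 with quality weights) and Tlr6 from -0.49 to -0.078. The values nearest 0 of Tlr1 and Tlr6 came without mouse c. Of all the members' alternative values 160 kept their sign and call status, 6 became calls and 34 changed sign without a call. With the mouse as a replicate block, those that changed sign in edgeR were Tlr3 0.064, Tlr8 0.17 and Tlr9 0.29, and in DESeq2 Tlr3 0.057, Tlr8 0.17 and Tlr9 0.29. The block changed no call of a member. In limma-voom Tlr8 was 0.17 and Tlr9 0.060, and with quality weights Tlr4 was -0.0029 and Tlr13 -0.073. With length and GC offsets and the replicate block Tlr8 was 0.15 and Tlr9 0.12. The same offsets without the block gave -0.67 for Tlr1 (SE 0.24), -1.14 for Tlr2 (SE 0.24) and -0.023 for Tlr3 (SE 0.21). They gave 0.16 for Tlr4 (SE 0.21), -1.04 for Tlr5 (SE 0.70) and -0.40 for Tlr6 (SE 0.20). For Tlr7 the value was -0.18 (SE 0.19), for Tlr8 -0.15 (SE 0.52), for Tlr9 -0.30 (SE 0.70) and for Tlr13 0.019 (SE 0.21). Without the 3 libraries Tlr4 was -0.0086 and Tlr13 -0.11. Omitting 1 library at a time gave -0.32 to 0.35 for Tlr3, -0.28 to 0.57 for Tlr4, -0.50 to 0.14 for Tlr7, -0.79 to 0.24 for Tlr8, -0.60 to 0.81 for Tlr9, -0.27 to 0.44 for Tlr13 and -0.64 to 0.30 for the Tlr7 to Tlr8 ratio. Omitting 1 mouse at a time, with the replicate block, gave -0.19 to 0.46 for Tlr3, -0.16 to 0.71 for Tlr4, -0.39 to 0.28 for Tlr7 and -0.74 to 0.98 for Tlr8 (0.40 without mouse a). It gave -0.39 to 1.04 for Tlr9 (0.21 without mouse c) and -0.18 to 0.58 for Tlr13 (-0.086 without mouse a). The cause was not tested. With the longest transcript as length the order of levels was the same and 6 neighbouring pairs held in all libraries. In DMSO alone 6 pairs held too, but in another order, with Tlr2 above Tlr4.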
